A study of Homo sapiens with 9 samples.

Results

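The comparison described here is the array labelled EtOH+FA for 7 days minus the array labelled EtOH for 7 days, both from embryoid bodies of NCCIT, a human embryonal carcinoma line. These are 2 of the 9 arrays of the series, taken from their titles. Embryoid bodies are floating aggregates that begin to differentiate when the cells cannot attach. The day 7 arrays comprised embryoid bodies without addition (untreated), with FA, with 50 mM ethanol (EtOH), and with ethanol and FA (EtOH+FA). The same 4 conditions were labelled for 21 days, and 1 array came from undifferentiated NCCIT cells. The protocol given for all samples describes 7 days of culture with or without ethanol, so how long the cells labelled for 21 days had ethanol or FA is not known here. All cells were grown in the same serum-containing medium, which was changed daily. What FA stands for, and its dose, could not be read from the labels, and the abbreviation is kept. With 1 array per condition, and no word on separate cultures, a difference between 2 arrays has no replicate check and no test. An array of a whole culture cannot tell fewer cells of a type from less RNA per cell. The values carry no detection call, so a value near the median is not evidence that a gene is expressed. NCCIT is 1 established line, so the arrays describe a single genetic background.

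The question was which genes lay nearer to, or farther from, the 2 day 7 arrays without ethanol once FA accompanied ethanol. Several groups recur in the answer. Cells short of oxygen stabilise hypoxia-inducible factors, which switch on genes for glucose use, blood vessel growth and hydroxylation of collagen and histones, and the core of large cell aggregates is a known site of low oxygen. Cells under amino acid or protein-folding stress switch on amino acid transporters and stress genes through the factor ATF4. TXNIP, the thioredoxin-interacting protein, restrains glucose uptake and is itself induced by glucose. MicroRNAs of the miR-302 family are abundant in pluripotent cells and decline with differentiation.

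The EtOH array stood apart from the other 3 day 7 arrays. Over the 12254 genes tested, its mean Pearson correlation with them was 0.9825, against 0.9885 for EtOH+FA, 0.9892 for untreated and 0.9899 for FA. It was at least 2-fold below each of the other 3 arrays in 4 genes and at least 2-fold above each in 0, and at 1.5-fold the numbers were 78 and 1. For EtOH+FA the corresponding numbers below and above were 1 and 0 at 2-fold and 2 and 0 at 1.5-fold. Genes dim without ethanol were brighter on the EtOH array. Genes were put in 5 equal bins by their mean on the day 7 arrays without ethanol. In the dimmest bin the EtOH array's median difference from that mean was 0.12 on the log2 scale, against -0.03 in the brightest bin. The mean that set the bins is also the one subtracted. In addition, 254 of the 12254 genes, all in the dimmest bin, passed the filter on dim genes only through the EtOH day 7 array. Both points favour a positive median in the dimmest bin. The spread of all transcript clusters was also narrower on the EtOH array (SD 2.13 log2 units, against 2.15 to 2.16 on the other 3). All 10 pluripotency markers with a cluster of their own were above the median of all values (7.71) on all 4 day 7 arrays. Of 8 fibroblast, 6 leukocyte, 9 endothelial and blood, 5 neuron and 4 trophoblast markers, 2, 1, 2, 2 and 0 were above it on all 4. The summed log2 level of the leukocyte markers was 39.1 on the EtOH array and 37.6 to 37.7 on the other 3. The sums were 54.7 on EtOH and 53.02 to 54.5 on the others for fibroblast markers, 63.7 and 62.1 to 62.6 for endothelial and blood markers, 37.2 and 35.8 to 36.5 for neuron markers and 26.6 and 26.5 to 26.6 for trophoblast markers. The part of these markers and of the dim genes in the differences below was not tested. Because the EtOH array enters every difference below, a departure of that array and a response to FA cannot be told apart.

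Few genes differed strongly, and most of those that did were higher with EtOH+FA. Of 12254 genes tested, 4 (0.0326%) were at least 2-fold higher and 1 (0.00816%) was at least 2-fold lower on the EtOH+FA array. At 1.5-fold the numbers were 146 (1.19%) higher and 23 (0.188%) lower. The median difference over all genes was 0.03 on the log2 scale, with an SD over genes of 0.21. The 5 genes past 2-fold were MIR302A, SNORD59A, KPNA5, TCP11L2 and TXNIP. They are named because they are so few, and MIR302A and SNORD59A fall outside the naming rule, which passes over small RNAs.

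MIR302A, the gene of a microRNA typical of pluripotent cells, had the largest difference of all genes tested, and it was low on the EtOH array alone among the day 7 arrays. Its log2 value was 9.13 in untreated, 8.83 in FA, 7.53 in EtOH and 8.89 in EtOH+FA embryoid bodies, and 9.29 in undifferentiated cells. The difference of 1.35 (2.55-fold) closed 93.5% of the distance between the EtOH array and the mean of the arrays without ethanol. MIR302B, its neighbour on chromosome 4, named after its values were seen, had 9.88, 9.66, 8.83 and 9.30 in the same order, so that EtOH was again lowest. The mature products of both genes are shown because they carry the same seed, the stretch that pairs with target messenger RNAs. The value of a gene's cluster does not tell the mature microRNA from its precursor. The sequences come from RefSeq (GRCh38.p14, minus strand), with the seed, bases 2 to 8, in capitals.
hsa-miR-302a-3p, chr4:112648186-112648208: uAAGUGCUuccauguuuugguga
hsa-miR-302b-3p, chr4:112648489-112648511: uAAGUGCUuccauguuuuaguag
They share 20 of 23 positions. At day 21 both genes were lower than at day 7 in every condition. MIR302A was then 6.65 with EtOH and 5.90 with EtOH+FA, both below the median of all values (7.71). The difference of -0.75 was opposite in sign to day 7.

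Among messenger RNAs the largest increases with EtOH+FA were genes in which the EtOH array was lowest of the 4 day 7 arrays. Choosing the largest increases favours that order. KPNA5, which codes for an importin that carries proteins into the nucleus, was 9.59 in untreated, 9.52 in FA, 8.40 in EtOH and 9.54 in EtOH+FA. The EtOH+FA value lay between those of the arrays without ethanol. TCP11L2 had 8.21, 8.14, 7.14 and 8.14 in that order, again with EtOH alone apart. GKAP1, which codes for an anchoring protein of cGMP-dependent kinase, had 7.66, 7.70, 6.68 and 7.62. The snoRNA gene SNORD59A, whose RNA guides ribosomal RNA methylation, had 7.72, 7.61, 6.32 and 7.49. In these 4 genes EtOH+FA closed between 87.4% and 98.4% of the distance, with TCP11L2 at 96.9% and GKAP1 at 94.5%.

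The remaining 12 of the 15 largest increases included metabolic, chromatin and cilium genes. INSIG2, which codes for a membrane protein that holds back sterol synthesis, was 11.30, 11.26, 10.04 and 10.95 in untreated, FA, EtOH and EtOH+FA. EtOH+FA closed 73.2% of its distance and stayed below both arrays without ethanol. The histone demethylase gene KDM7A had 10.49, 10.40, 9.40 and 10.31, and 87.0% was closed. GBE1, which codes for the glycogen branching enzyme, had 10.62, 10.48, 9.14 and 10.00, with 61.3% closed. The cilium gene CEP290 (0.86) and the kinetochore gene CENPH (0.82) reached values just above both arrays without ethanol. CCDC112 (0.84), the neuropeptide receptor gene VIPR2 (0.83), the taste receptor gene TAS2R19 (0.82) and the pseudogene PARGP1 (0.80) stayed below them. The zinc finger genes ZNF654 (0.81) and ZNF701 (0.80) and the MAP kinase phosphatase gene DUSP10 ended above both. DUSP10 moved away, from 7.92 in EtOH to 8.78 in EtOH+FA, against 8.34 and 8.32 without ethanol. Of the 15 genes, 14 lay nearer to the mean of the arrays without ethanol on the EtOH+FA array than on the EtOH array. Choosing the largest increases favours this count too.

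**Figure D1:**
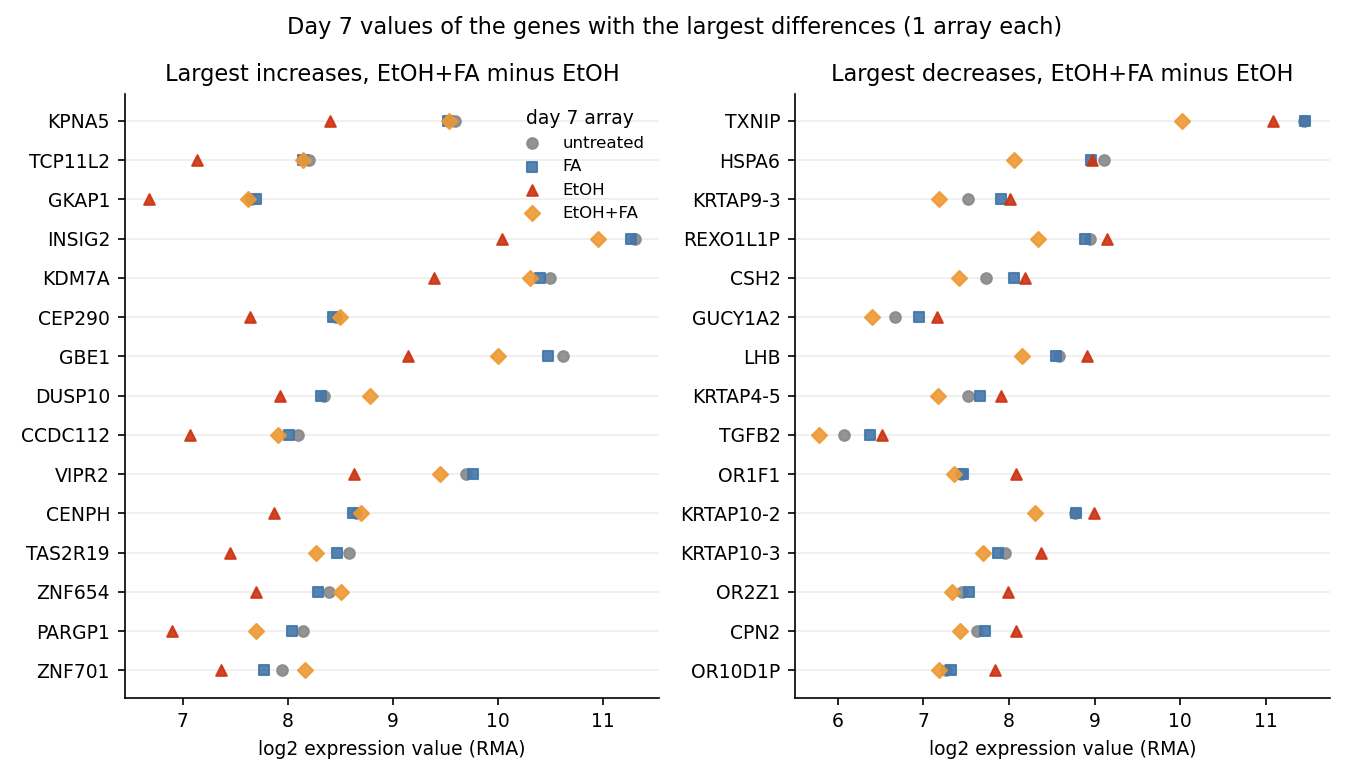
Log2 expression values (x axis) on the 4 day 7 arrays for the 15 genes with the largest increase and the 15 with the largest decrease of EtOH+FA over EtOH among genes tested, 1 point per array and gene. On the left the EtOH triangle is the lowest in every gene and in most sits apart from the other 3 arrays. In DUSP10 and ZNF701 the values are spread, with the EtOH+FA diamond highest. TXNIP and HSPA6 on the right have the EtOH+FA diamond apart.

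The decreases had another form: TXNIP and HSPA6 were low on the EtOH+FA array alone, and most of the others were dim genes that were brightest on the EtOH array. TXNIP was 11.44 in untreated, 11.46 in FA, 11.09 in EtOH and 10.02 in EtOH+FA. It was thus 2.10-fold lower with EtOH+FA than with EtOH and lay below both arrays without ethanol. At day 21 its values were 9.63 untreated, 9.87 with FA, 9.54 with EtOH and 10.25 with EtOH+FA, so EtOH+FA was there the highest of the 4. ARRDC4 and ARRDC3, arrestin-family relatives of TXNIP named after their values were seen, differed by -0.43 and 0.45, opposite to each other. HSPA6, a strictly inducible heat shock gene whose probes may share signal with other HSP70 genes, was 9.11, 8.95, 8.97 and 8.06 in untreated, FA, EtOH and EtOH+FA, and 7.55 in undifferentiated cells. In the heat shock list, which does not hold HSPA6, 6 of 15 genes tested were above 0, where 55.7% of all genes were above and 43.5% below. Its median was -0.01, with the co-chaperone genes DNAJB4 at 0.51 and DNAJB1 at -0.21. Of the 15 largest decreases, 10 lay in the dimmest of the 5 level bins, below 7.99. They comprised keratin-associated protein genes (KRTAP9-3 at -0.84, KRTAP4-5 at -0.74, KRTAP10-3 at -0.67), olfactory receptor genes (OR1F1 at -0.72, OR2Z1 at -0.66 and OR10D1P at -0.65), the placental lactogen gene CSH2 (-0.78), GUCY1A2 (-0.75), CPN2 (-0.65) and the growth factor gene TGFB2 (-0.73). The brighter decreases were the pseudogene REXO1L1P (-0.80), the luteinizing hormone gene LHB (-0.75) and KRTAP10-2 (-0.68). Several of these belong to families of near-identical copies. In all 13 of these genes the EtOH array was the brightest and the EtOH+FA array the dimmest of the 4 at day 7, an order that choosing the largest decreases favours. KRTAP4-5, OR1F1, OR2Z1 and OR10D1P passed the filter on dim genes only through the EtOH day 7 array, so for these 4 a high EtOH value was a condition of being listed.

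Movement was counted for every gene as the distance of each ethanol array from the mean of the untreated and FA arrays. Of all genes tested, 61.4% lay nearer to that mean on the EtOH+FA array than on the EtOH array. Among the 146 genes at least 1.5-fold higher with EtOH+FA, 136 moved toward and 10 away. Among the 23 at least 1.5-fold lower, 12 moved toward and 11 away, and 16 of the 23 lay in the dimmest bin. The counts toward are a description only, because the EtOH array sets both the distance and the movement. After TXNIP, HSPA6 and DUSP10, the next of the 6 largest movements away were KRTAP9-3, REXO1L1P and SPOPL, a ubiquitin ligase adaptor gene with 8.48 in EtOH and 9.28 in EtOH+FA against 8.81 and 8.85 without ethanol.

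The percent of the distance closed was larger for genes low on the EtOH array than for genes high on it. The EtOH array both chose these genes and enters the percent, so error in that array would also read as closing. The percents are a description, and the difference between the sets was not tested. The EtOH array lay at least 2-fold below both arrays without ethanol in 21 genes (0.171%) and at least 2-fold above both in 6 (0.049%). The median percent of the distance closed on the EtOH+FA array was 63.2% for the 21 (from 20.3% to 98.4%) and 32.2% for the 6 (from 13.2% to 42.9%). At 1.5-fold the sets held 190 genes (1.55%) and 48 genes (0.392%), with medians of 65.9% and 19.9%. At least 75% was closed in 68 of the 190 and in 1 of the 48, and under 25% in 15 and 26. The EtOH+FA array was still at least 1.5-fold from the mean on the same side in 17 of the 190 and in 26 of the 48. The dimmest bin held 23 of the 190 and 18 of the 48. The EtOH+FA array itself lay at least 2-fold below both arrays without ethanol in 2 genes (0.0163%) and above both in 5 (0.0408%).

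Among the 21 genes held low, those with under 25% closed were PTPRB, NDRG1 and UPK1A. PTPRB, a receptor phosphatase gene of endothelium, was 10.36 in untreated, 10.14 in FA, 8.30 in EtOH and 8.70 in EtOH+FA, so 20.5% was closed and both ethanol arrays stayed far below. NDRG1, a stress gene induced by low oxygen, had 10.27, 10.01, 8.84 and 9.15, with 24.0% closed. The urothelial gene UPK1A had 20.3% closed. The 11 genes between 25% and 75% were PPFIA4 (32.8%), MIR9-1HG (41.9%), TMEM45A (56.8%), ANKRD37 (59.2%), PFKFB4 (60.9%), GBE1, the spliceosomal RNA gene RNU4-2 (62.0%), SELENOP, which codes for a selenium transport protein (63.2%), PARGP1 (67.3%), KDM3A (68.9%) and INSIG2. VIPR2, TAS2R19 (75.8%), SNORD117 (78.3%), SNORD59A, MIR302A, TCP11L2 and KPNA5 were the 7 with at least 75% closed.

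The 6 genes held high by 2-fold were SHISA3, LRAT, SLC7A11, SLC7A5, DUSP6 and CHAC1, and in all 6 the EtOH+FA array stayed above both arrays without ethanol. SHISA3, which codes for an inhibitor of WNT and FGF receptors, was 7.49 in untreated, 7.53 in FA, 9.10 in EtOH and 8.89 in EtOH+FA, with 13.2% of the distance closed. The cystine transporter gene SLC7A11 had 10.29, 10.35, 11.64 and 11.38, with 19.5% closed. The leucine transporter gene SLC7A5 had 9.02, 8.94, 10.20 and 9.68, with 42.3% closed, the retinol esterification gene LRAT 30.7%, the glutathione-degrading enzyme gene CHAC1 33.7% and the ERK phosphatase gene DUSP6 42.9%. In each of these 6 genes EtOH+FA lay between EtOH and the arrays without ethanol. The organic anion transporter gene SLCO4C1, in the 1.5-fold set and named after its values were seen, moved farther away, with 8.74, 8.66, 9.64 and 9.84.

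**Figure D2:**
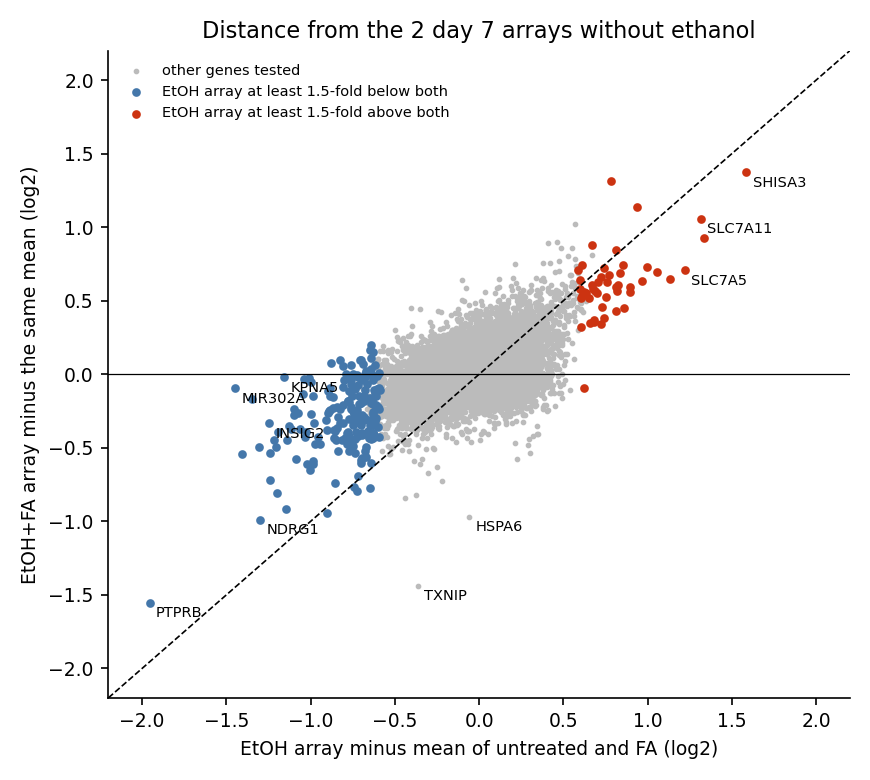
Each point is a gene tested; the x axis gives the EtOH array and the y axis the EtOH+FA array, both minus the mean of the untreated and FA arrays at day 7 in log2 units, so the 2 axes share that mean. Points on the dashed line did not differ between the ethanol arrays and points on the horizontal line returned fully; the 190 blue genes lie mostly near the horizontal line and the 48 red genes nearer the dashed line.

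**Figure D3:**
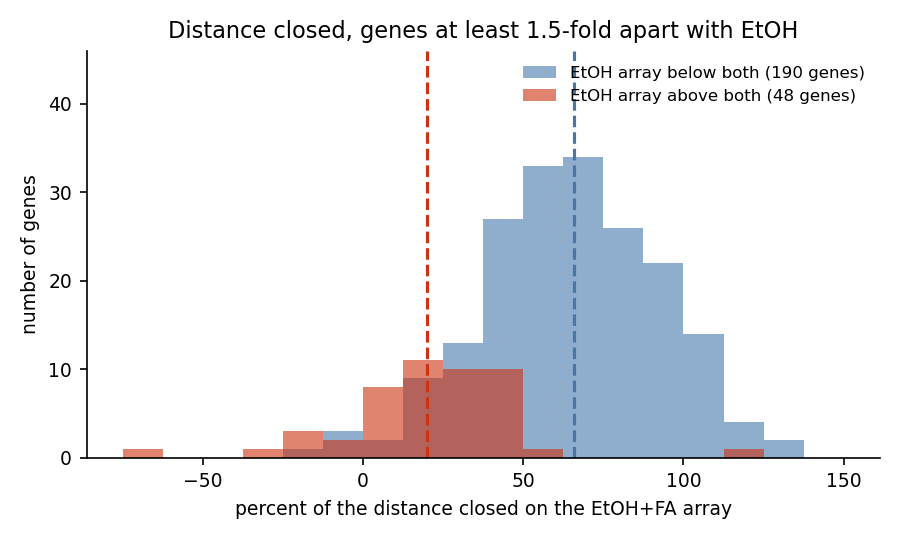
Number of genes (y axis) by percent of the distance closed on the EtOH+FA array (x axis), for genes in which the EtOH array was at least 1.5-fold below (190) or above (48) both arrays without ethanol. Dashed lines mark the medians, 65.9% and 19.9%. The EtOH array both chose the genes and enters the percent.

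The day 21 arrays, which share no array with the day 7 pair, were set beside these sets. Of the 190 genes held low at day 7, 149 were lower with EtOH than untreated at day 21 (41.3% of all genes tested were) and 157 were lower with EtOH+FA than with FA (44.8% of all). Their medians were -0.17 and -0.18. Of the 48 held high, 40 were higher with EtOH at day 21 (57.7% of all) and 37 with EtOH+FA over FA (52.6% of all), with a median of 0.23 in each. For the genes held low, the sign of EtOH+FA minus EtOH was the other at day 21. Of the 190 genes, 18 were higher with EtOH+FA than with EtOH, against 35.2% of all genes. Their median was -0.14 against -0.03 over all genes. Without ethanol they were lower with FA as well: FA minus untreated at day 21 had a median of -0.14, against -0.01 over all genes. The day 21 comparisons share arrays with one another. EtOH minus untreated and FA minus untreated both use the untreated array, and both comparisons of EtOH+FA use the EtOH+FA array. A departure of 1 array would enter several of these medians, so they are not separate checks. Of the 48 held high, 34 were lower with EtOH+FA than with EtOH at day 21, where 63.2% of all genes were. Their median was -0.07, and FA minus untreated at day 21 had a median of -0.09 in them.

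Hypoxia response genes were higher with EtOH+FA as a group. Of 31 listed genes 29 had a cluster of their own and passed the filter on dim genes, and 28 of the 29 were above 0 (55.7% of all genes were), with a median of 0.34 against 0.03 over all genes. At least 1.5-fold higher were 8 of 29, against 1.19% of all genes, and 0 were 1.5-fold lower. The list is bright: 19 of the 29 lay in the brightest of the 5 level bins, in which 69.6% of genes were above 0. KDM3A, a histone demethylase gene, was 11.16 in untreated, 11.09 in FA, 10.00 in EtOH and 10.77 in EtOH+FA. P4HA1, which codes for the collagen prolyl hydroxylase, had 11.61, 11.60, 10.61 and 11.33. ANKRD37 had 9.93, 9.84, 8.68 and 9.39. In these and in INSIG2 the order was the same: EtOH lowest, EtOH+FA next, and the arrays without ethanol highest. The other 4 past 1.5-fold were the glycolytic regulator gene PFKFB4 (0.69), the collagen cross-linking gene LOX (0.61), the mTOR inhibitor gene DDIT4 (0.60) and the clock and hypoxia repressor gene BHLHE40 (0.59). The angiogenic factor gene VEGFA differed by 0.27, with 10.90, 10.72, 10.16 and 10.43. HIF1A, the gene of the oxygen-regulated subunit itself, differed by 0.26, and EPAS1 was the gene below 0 (-0.01). As a median over the list, the EtOH array was 0.55 below and the EtOH+FA array 0.19 below the arrays without ethanol. Undifferentiated cells were lower still in the genes past 1.5-fold, with KDM3A at 9.68, P4HA1 at 9.84, INSIG2 at 8.99 and ANKRD37 at 8.14.

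In the other FA pairs, which share no array with the day 7 ethanol pair, the medians of the hypoxia list were below 0. Its median was -0.06 for FA minus untreated at day 7, -0.10 for EtOH+FA minus EtOH at day 21 and -0.04 for FA minus untreated at day 21, with 2, 1 and 10 of 29 above 0. Over all genes the medians were -0.002, -0.03 and -0.01. In the brightest bin, which held 19 of the 29 genes, they were -0.002, -0.04 and -0.04. For FA minus untreated at day 21 the list was thus no lower than that bin. The shares of all genes above and below 0 were 46.4% and 51.3%, 35.2% and 63.2%, and 45.6% and 53.1%.

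Glycolysis and cholesterol synthesis genes were also mostly higher with EtOH+FA, by less. The counts in these lists stand beside 55.7% of all genes above 0 and 1.19% at least 1.5-fold higher, and beside 69.6% above 0 in the brightest bin. All 18 glycolysis genes tested were above 0, with a median of 0.19, and ALDOC, an aldolase gene with 11.63, 11.55, 10.70 and 11.34, was the 1 past 1.5-fold. PDK1, a pyruvate dehydrogenase kinase gene, differed by 0.47 and PFKP, a phosphofructokinase gene, by 0.33. Of 16 cholesterol synthesis genes 15 were above 0, with a median of 0.21. The cholesterol transport gene STARD4 had 9.96, 9.83, 9.20 and 9.86 (0.66), INSIG1 differed by 0.48, HMGCS1, an early enzyme of the pathway, by 0.45 and MSMO1 by 0.44. In STARD4, HMGCS1 and MSMO1 the EtOH+FA value lay between those of the arrays without ethanol. The lists overlap: HK2, SLC2A1 and PDK1 are in both the hypoxia and the glycolysis list. SnoRNA and zinc finger genes, families recognised by symbol, were higher as well. Of 110 snoRNA genes 82 were above 0 (median 0.18, 11 at least 1.5-fold higher and 1 lower), and of 380 ZNF genes 285 were above 0 (median 0.15, 14 past 1.5-fold).

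Amino acid transporter genes were mostly lower with EtOH+FA than with EtOH, whereas stress gene lists had medians near 0. Of 15 amino acid transporter genes 13 were below 0 (43.5% of all genes were), with a median of -0.18 and none past 1.5-fold. SLC7A5 (-0.52) led, followed by the glutamine transporter gene SLC1A5 (-0.35), the glycine transporter gene SLC6A9 (-0.34) and the cationic transporter gene SLC7A1 (-0.29). The list median lay 0.31 above the arrays without ethanol with EtOH and 0.22 above with EtOH+FA. Of 22 ER stress and ATF4 genes 14 were below 0 with a median of -0.06, or -0.03 with arrays centred on their median. CHAC1 differed by -0.36, HERPUD1 by -0.31 and SESN2 by -0.31. DDIT4, also in the hypoxia list, was higher (0.60), and so was VLDLR (0.35). Of 24 folate and serine genes 18 were below 0 (median -0.07, from -0.28 to 0.15). The 21 oxidative stress genes had a median of -0.01 and the 13 metallothionein and zinc genes -0.01, and their medians lay 0.11 and 0.24 above the arrays without ethanol with EtOH and 0.09 and 0.21 above with EtOH+FA. The 8 protocadherin beta genes, near-identical neighbours that were low on both ethanol arrays (-0.37 and -0.41 from the arrays without ethanol), had a median of -0.01, with PCDHB3 at 0.61 and PCDHB11 at -0.51. Of 14 p53 target genes 8 were below 0, with a median of -0.04, or 0.00 with arrays centred on their median. PHLDA3, a dim gene (-0.60, with 7.87, 8.08, 8.45 and 7.85), and BBC3 (-0.45) were lower. TP53INP1 (0.38) and CCNG1 (0.37) were higher. Of 18 immediate early genes 11 were below 0, whereas the transcription factor gene JUN was higher (0.71, with 9.92, 10.00, 9.48 and 10.19).

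Pluripotency genes had no common direction between the ethanol arrays at day 7, and several lists of developmental genes, many of them dim, were lower with EtOH+FA. The 25 pluripotency genes had a median of 0.00, with 12 above and 12 below 0. Of 17 HOX genes 13 were below 0 with a median of -0.29, led by HOXB1 (-0.56), HOXB8 (-0.55) and HOXC5 (-0.51), and none was past 1.5-fold. HOX genes were still dim at day 7, and with genes kept by their day 7 mean the list's median was -0.05. HOXB1 was 7.82 in untreated, 7.78 in FA, 8.28 in EtOH and 7.72 in EtOH+FA at day 7, against 11.75 to 11.90 at day 21. HOXB4 (0.37) and HOXB3 (0.28) were higher. Of 11 early mesoderm genes 9 were below 0 (median -0.15) and of 12 endoderm genes 8 (median -0.19), and the 5 germ cell genes had a median of -0.19. Over all genes tested 43.5% were below 0. In the dimmest bin 35.0% of all genes were above 0 and the median was -0.09. That bin holds the genes that passed the filter only through the EtOH day 7 array. Whether these lists differ from other dim genes was not tested. Medians lay between -0.19 and 0.11 for the lists of neural progenitor, neuron, neural crest, mesoderm, endoderm, heart, endothelium, trophoblast, germ cell, matrix, WNT, Notch, Hedgehog, BMP, NODAL, FGF and retinoic acid genes, with 1 gene past 1.5-fold among them, TGFB2. The 30 cell cycle genes had a median of -0.02, the 25 respiratory chain genes 0.00 and the 71 mitochondrial ribosomal protein genes 0.01. In the respiratory chain list UQCRB stood out at 0.76, with 8.11, 8.32, 7.64 and 8.40.

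**Figure D4:**
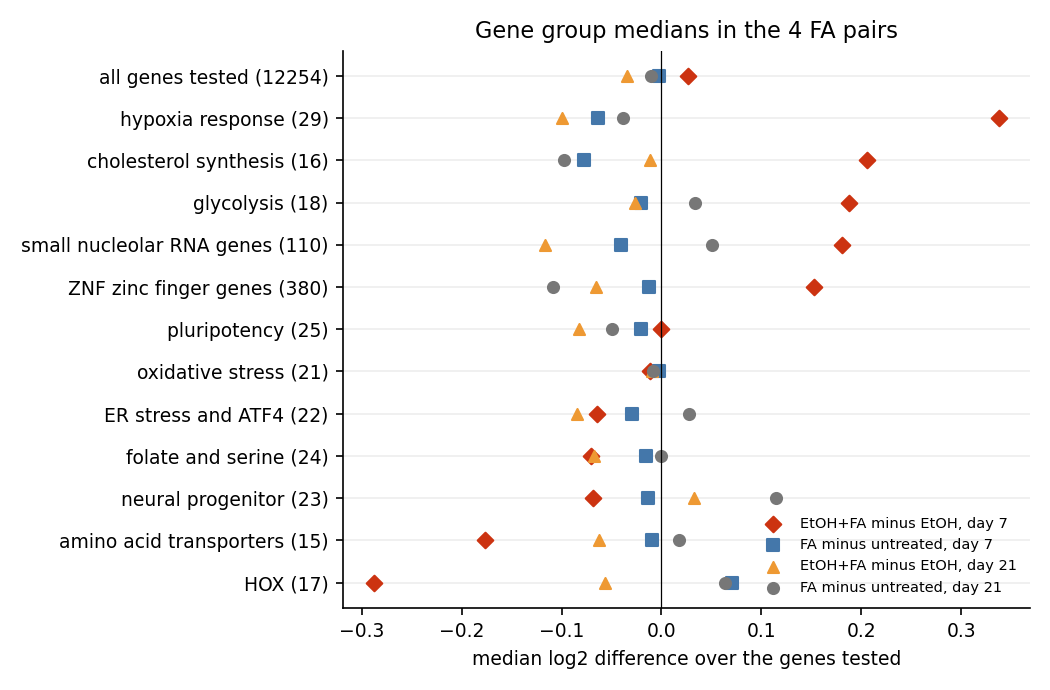
Median log2 difference (x axis) over the tested genes of each group (number in brackets) in the 4 pairs of arrays that differ by FA, with all genes tested in the top row. For hypoxia response genes the day 7 ethanol pair lies at 0.34 and the other 3 pairs between -0.10 and -0.04.

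FA was associated with fewer differences in the other matched pairs. The SD of the difference over genes was 0.09 for FA minus untreated at day 7, 0.12 for EtOH+FA minus EtOH at day 21 and 0.15 for FA minus untreated at day 21, against 0.21 in the day 7 ethanol pair. Genes at least 1.5-fold higher and lower numbered 2 (0.0163%) and 0 (0.0%), 4 (0.0326%) and 9 (0.0734%), and 0 (0.0%) and 10 (0.0816%). A limma fit of the FA effect over these 3 pairs, which uses neither array of the day 7 ethanol pair, passed 0 of 12254 genes (0.0%) after Benjamini-Hochberg adjustment, with 2220 at an unadjusted p under 0.05 and a lowest adjusted p of 0.165. The number rested on single pairs: 18 genes passed without the day 21 ethanol pair and 4 without the day 7 pair, each with 1 residual degree of freedom. The p-values of the 3-pair fit rest on the spread of the FA difference among the pairs, with 2 residual degrees of freedom, pooled in part over genes. The 3 pairs are different conditions and not replicates. Their spread therefore also holds any change of the FA effect with day or ethanol, and part of it may be technical.

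No gene passed this fit, and most of the 15 largest increases and 15 largest decreases had the opposite sign to the day 7 ethanol pair. The FA effect over the 3 pairs was below 0 in 14 of the 15 largest increases (from -0.29 to 0.05) and above 0 in 13 of the 15 largest decreases. Over all genes 59.9% were below and 40.0% above 0. The sign followed brightness in opposite ways in the 2 comparisons: from the dimmest to the brightest bin the share above 0 went from 35.0% to 69.6% in the day 7 ethanol pair and from 56.5% to 27.3% in the fit. The dimmest bin holds the genes that passed the filter only through the EtOH day 7 array, which lowers its share in the day 7 ethanol pair. The part of brightness in the opposite signs was not tested. MIR302A had -0.44 ± 0.09 (SE, 3 pairs; limma adjusted p = 0.165), TXNIP 0.32 ± 0.11 (adjusted p = 0.200), KPNA5 -0.15 ± 0.05 (adjusted p = 0.208) and INSIG2 -0.19 ± 0.06 (adjusted p = 0.192). Of 29 hypoxia genes 28 were below 0, with a median of -0.06 against -0.02 over all genes and -0.03 in the brightest bin, where 72.6% were below 0, and 0 passed. The 10 genes of lowest p were TFPI (-0.40), the annexin gene ANXA1 (-0.44), the ciliary dynein gene DNAH11 (-0.32), TAS2R10 (-0.38), ADAMTS20 (-0.35), ZNF782 (-0.29), HMHB1 (0.28), the taurine transporter gene SLC6A6 (-0.28), FAM151B (-0.27) and the smooth muscle actin gene ACTG2 (-0.32). In the day 7 ethanol pair DNAH11 differed by 0.75, ACTG2 by 0.55 and ADAMTS20 by 0.51, whereas TFPI (0.07), ANXA1 (-0.06) and SLC6A6 (-0.07) differed little.

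Promoters of the hypoxia genes that were higher with EtOH+FA are shown because the hypoxia-inducible factors bind the word ACGTG. The 250 bases before each annotated start in RefSeq (GRCh38.p14) were searched for it on both strands, where a match on the other strand reads CACGT and the palindrome CACGTG counts on each. Of the 8 hypoxia genes past 1.5-fold 6 held it in at least 1 window. So did 15 of 26 matched hypoxia genes (57.7%) and 28.7% of 9785 matched genes tested. Counted by window and not by gene, it was in 18.5% of all 35116 windows. Of the genes held low by 1.5-fold on the EtOH array 39.9% of 138 matched held it, and of those held high 28.6% of 42. A match is a description and not a shown binding site. The hypoxia list was chosen as hypoxia response genes, so its share describes the list and not this pair of arrays. KDM3A and PFKFB4 had no match in these windows. The windows of 3 genes with a match follow, 5′ to 3′ on the gene's strand, with the matched letters in capitals.
INSIG2, chr2:118088221-118088470, plus strand: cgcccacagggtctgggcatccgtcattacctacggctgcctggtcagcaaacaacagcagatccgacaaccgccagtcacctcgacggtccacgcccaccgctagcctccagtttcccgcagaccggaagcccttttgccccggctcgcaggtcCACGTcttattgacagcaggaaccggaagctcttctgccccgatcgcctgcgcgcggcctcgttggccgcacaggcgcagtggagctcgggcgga
P4HA1, chr10:73096867-73097116, minus strand: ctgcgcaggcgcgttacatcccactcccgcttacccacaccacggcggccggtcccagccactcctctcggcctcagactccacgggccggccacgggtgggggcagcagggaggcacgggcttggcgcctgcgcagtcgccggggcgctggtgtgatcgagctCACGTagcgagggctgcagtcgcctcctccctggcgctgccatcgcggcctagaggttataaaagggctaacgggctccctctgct
ANKRD37, chr4:185396591-185396840, plus strand: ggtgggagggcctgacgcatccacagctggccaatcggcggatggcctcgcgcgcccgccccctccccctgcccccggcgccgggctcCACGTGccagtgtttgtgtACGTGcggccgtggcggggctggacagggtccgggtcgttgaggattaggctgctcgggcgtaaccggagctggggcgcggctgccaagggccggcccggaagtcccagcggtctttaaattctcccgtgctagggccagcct
The windows shown of INSIG2 and P4HA1 held 1 match each, and ANKRD37 held the palindrome and a further ACGTG.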

How the data were processed

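Total RNA was labelled as biotinylated cDNA and hybridised to 9 single-channel Affymetrix arrays, per the labels' protocols. The deposited values are log2 expression values per transcript cluster, which, per the submitters' processing notes, the authors made by RMA in Expression Console 1.3.1; the log base was inferred from the values (2.49 to 14.3). RMA aligns the arrays' distributions, which hides a shift common to most transcripts, and narrows differences between dim values. No source used here names the annotation's genome build.

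Of 33297 clusters, the platform annotation gave 19460 a single gene symbol, 1754 several and 12083 none; the 19460 gave 18417 genes. The brightest cluster by mean stood for a gene. Genes whose highest value exceeded the median of all values (7.71) were kept, 12254 in all. Differences between single arrays are values without a test. The FA effect in the 3 other pairs was fitted with limma 3.58.1 in R 4.3.3 with the pair as a block, adjusted by Benjamini-Hochberg over all genes at 0.05, and the fit was tested on simulated data. The number of arrays limits the precision.

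Members and gene lists were chosen with earlier results of these data known. Named genes were the 15 largest differences in each direction, the 6 largest toward and away, the 10 lowest p of the fit and up to 4 members of a list, passing over small RNAs and provisional names; others were chosen after their values were seen. Alternatives changed the filter, the scaling, the cluster rule, the fold and the reference arrays. Python 3.11.15 computed the rest. Sequences are RefSeq's.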

Additional observations from a re-analysis of the deposited data

Results flagged for a closer look

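The differences of KPNA5, INSIG2 and other genes changed sign between the 2 pairs that add FA to ethanol, at day 7 and at day 21. The table as a whole leaned the same way: 55.7% of all genes were above 0 at day 7 and 63.2% below 0 at day 21. The medians at day 7 and day 21 were 0.03 and -0.03 over all genes, and 0.07 and -0.04 in the brightest bin. Given here are named genes at least 1.5-fold apart in both pairs, and lists of 10 or more genes whose medians were at least 0.09 in size in both. With 1 pair at each day the difference between the days was not tested. The hypoxia response list was higher with EtOH+FA at day 7 (median 0.34) and lower at day 21 (median -0.10). The small nucleolar RNA genes had a median of 0.18 and -0.12. TXNIP differed by -1.07 at day 7 and by 0.70 at day 21. MIR302A differed by 1.35 at day 7 and by -0.75 at day 21. Its day 21 values, 6.65 with EtOH and 5.90 with EtOH+FA, both lay below the median of all values (7.71).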

How the results depend on the processing

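Direction was kept by the hypoxia list median and by TXNIP, HSPA6, MIR302A, KPNA5, INSIG2, KDM3A and SLC7A5 under every alternative run for each; those for the single genes were added after the data were seen. Without a filter on dim genes 7 genes were at least 2-fold higher and 45 at least 1.5-fold apart moved away (21 as reported); with a filter on the day 7 mean 13 did. At 1.5-fold 146 were higher and 23 lower (59 lower without the filter and 15 with that on the day 7 mean), and at 3-fold 0 and 0. Against the untreated array alone the EtOH array was below in 35 genes; at 1.5-fold from both it was below in 190 and above in 48, with 19.9% of the distance closed in the latter, and below the other 3 arrays in 78 and above in 1. In the FA fit 4 genes passed without the day 7 pair and 18 without the day 21 ethanol pair. Of 210 alternative medians of the 42 other lists 10 moved by more than 0.09 (the SD over genes of FA minus untreated at day 7), and no list with a median of at least that size changed sign. Centring or quantile normalization shifted the median of all genes from 0.03 to 0.06 or -0.03, so list medians of that size have no settled sign. The precision of every value is limited by 1 array per condition.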

Other observations

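The EtOH+FA array lay at least 1.5-fold above both day 7 arrays without ethanol in 45 genes (0.367%) and below both in 18 (0.147%). It lay apart from all 3 other day 7 arrays in 0 genes above and 2 below. The genes given here were chosen after their values were seen. LAMA4, which codes for a laminin chain of vessel basement membranes, lay 0.78 above the mean of the arrays without ethanol with EtOH and 1.32 above with EtOH+FA. STMN2, a microtubule regulator gene of neurons, lay 0.57 and 1.02 above, and the VEGF receptor gene FLT1 0.67 and 0.88 above. Over the 5 neuron markers, STMN2 among them, the median of EtOH+FA minus EtOH was -0.32. Over the 9 endothelial and blood markers it was -0.18, and most of both sets were dim. The 10 tested genes of the neuron list had a median of 0.06, the 7 of the endothelium and blood list -0.14. With EtOH+FA the endothelial gene PTPRB lay at -1.55 from the mean of the arrays without ethanol. Below that mean, ID3, a target gene of BMP signalling, lay at -0.37 with EtOH and -0.82 with EtOH+FA, and the protocadherin gene PCDHB11 at -0.22 and -0.73. DDIT3, the stress factor CHOP, lay at -0.85 and -0.74, and IGFBP7, which codes for an insulin-like growth factor binding protein, at -0.74 and -0.77.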
